A study of Mus musculus with 8 samples.

Results

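The 8 genes Socs3, Abl1, Snai2, Zeb2, Bmi1, Lasp1, Runx2 and Trp63, each reported elsewhere as a target of the microRNA miR-203, were followed in differentiating mouse adipocyte cultures in which miR-203 was blocked. They were taken by gene name from 18933 genes in the authors' deposited tables, and all 8 had a row. The cultures were of cells from the stromal vascular fraction of fat, which holds the precursors of adipocytes, and the labels name neither the fat depot nor the strain or age of the mice. The 4 groups of 2 samples each, 8 samples in all, were cells transfected with a locked nucleic acid inhibitor of miR-203, of miR-182 or of miR-708 at 100 nM, and a control transfection whose oligonucleotide the labels do not describe. All groups were left to recover for 8 h, received the same adipogenic induction with rosiglitazone, insulin, 3-isobutyl-methylxanthine and dexamethasone, and were harvested at day 4. Whether the paired samples of each group were grown from different mice or dishes is not in the labels, and the deposited p-values can then reflect technical spread alone.

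MicroRNAs are short RNAs that guide Argonaute proteins to messenger RNAs, mainly by pairing of their bases 2 to 8, the seed, with sites in the 3′ untranslated region (3′ UTR). A bound messenger is translated less and is often degraded faster, and an inhibitor oligonucleotide pairs with the microRNA and keeps it from its targets. miR-203 is best known from skin, where it is abundant in the layers of the epidermis that leave the basal progenitor state and, in mouse, restrains the progenitor factor p63. The other genes were reported as targets in skin, bone, blood and tumour cells, several of them in human cells.

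The mature sequences below give the seeds of the microRNAs that the inhibitors are named for. They are RefSeq's for GRCm38.p6, with the seed in capitals. The labels name the microRNAs without an arm, and the arm usually called the guide is shown.
mmu-miR-203-3p: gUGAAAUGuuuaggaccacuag
mmu-miR-182-5p: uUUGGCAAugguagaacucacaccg
mmu-miR-708-5p: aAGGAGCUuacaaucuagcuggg
The 3 seeds differ from each other. The genes Mir203 (mature arm at chr12:112130927-112130948, plus strand), Mir182 and Mir708 have no row in the tables used here. The extent to which each microRNA was blocked was not analysed here.

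Of the 8 genes, 6 held the letters CATTTCA, the complement of the miR-203-3p seed, in their longest annotated 3′ UTR, and each of the 6 held it 1 time. The sites below show those letters with the bases around them, which were not compared between genes. Each is 22 bases of the sense strand from GENCODE M21 (GRCm38, the same assembly as mm10), ending opposite base 1 of the microRNA, with the 7 matched bases in capitals.
Socs3: actcagaaaagaaaCATTTCAg
Abl1: ctggtgtttttgagCATTTCAa
Snai2: cactgctgccaaacCATTTCAa
Bmi1: aaactgtagctaagCATTTCAt
Lasp1: ccgcctctgtccaaCATTTCAt
Trp63: aggggactctgtggCATTTCAg
In Abl1 and Snai2 an A follows the match, which makes it an 8mer, the form that microRNAs generally repress most. The 7 matched bases lie at chr11:117966123-117966129 (Socs3, minus strand), chr2:31802714-31802720 (Abl1, plus), chr16:14708706-14708712 (Snai2, plus), chr2:18685862-18685868 (Bmi1, plus), chr11:97838524-97838530 (Lasp1, plus) and chr16:25891545-25891551 (Trp63, plus). The Snai2 site stands 410 bases after the stop codon in a 3′ UTR of 1089 bases, the shortest of the 8, and the Socs3 site lies 44 bases before the end of a 3′ UTR of 1474 bases.

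Zeb2 and Runx2 held no match to bases 2 to 8 in any annotated 3′ UTR. Zeb2 has 6 shorter matches to bases 2 to 7 (ATTTCA) in 4941 bases and Runx2 has 1 in 3904 bases. Among all 14603 genes with a 3′ UTR, 16.8% held CATTTCA at least once (5.05% an 8mer) and 39.3% held ATTTCA, against 75% of the 8 genes for CATTTCA. The genes were listed because they had been reported as targets, so this share is a description of the list. Their 3′ UTRs are also long, with a median of 2424 bases against 1156 bases over all genes, and among genes with 3′ UTRs of 1000 to 5000 bases the share with CATTTCA was 23.3%. Matches to the seeds of the other inhibited microRNAs were few: Bmi1 has 1 for miR-182-5p (TTGCCAA) and Abl1 has 1 for miR-708-5p (AGCTCCT), where 12.0% and 15.3% of all genes hold these letters. Matches to the seed of the other arm, miR-203-5p (GAACCAC), number 2 in Trp63 and 1 in Lasp1, and 8.05% of all genes hold at least 1.

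**Figure D1:**
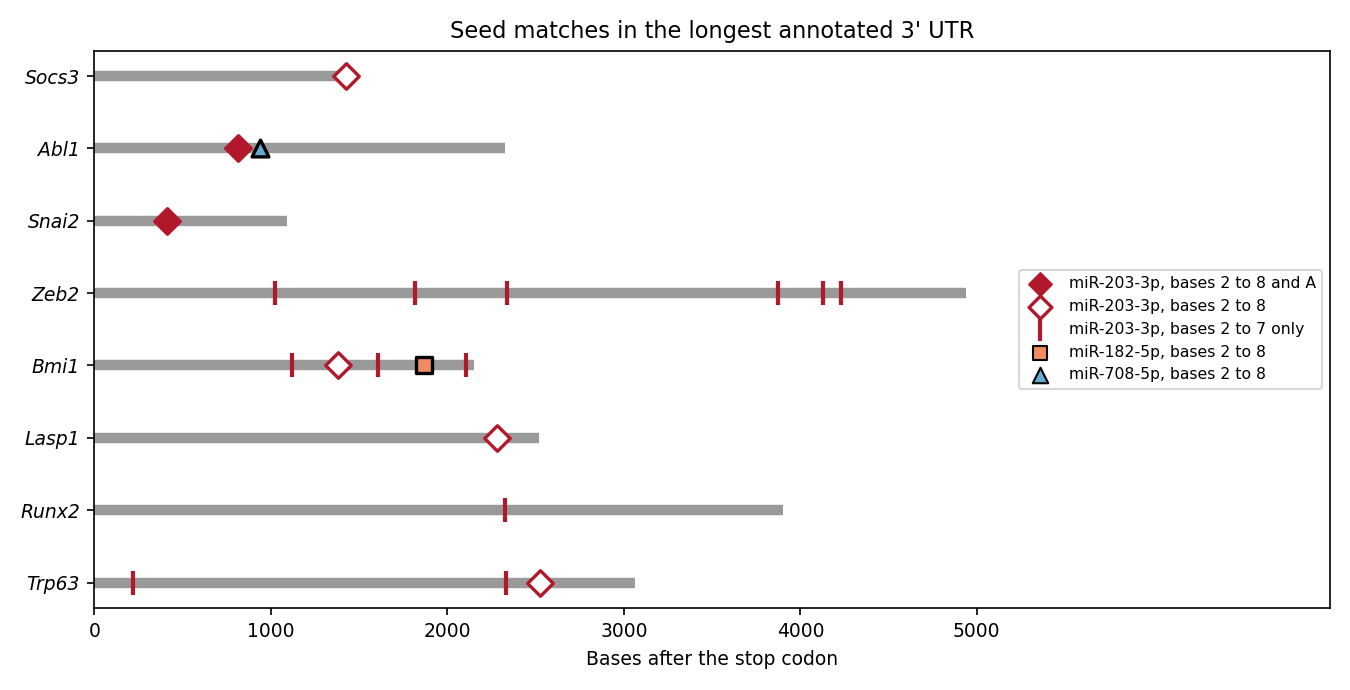
Seed matches along the longest annotated 3′ UTR of each of the 8 genes, in bases after the stop codon (grey bars drawn to scale). Diamonds mark miR-203-3p matches to bases 2 to 8 (filled where an A follows), ticks mark matches to bases 2 to 7 only, and a square and a triangle mark the miR-182-5p and miR-708-5p matches; Zeb2 and Runx2 carry ticks but no diamond.

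Expression was given by the authors as FPKM (sequenced fragments for each kilobase of a gene's transcript, adjusted for the size of the library), with 1 value per group and no spread between samples. All 3 comparisons use the same control samples and the same control value, so they are not independent of each other, and their values stand side by side here. The words rose and fell are kept for genes with a Cuffdiff q-value below 0.05 in the authors' deposited table. The cultures carried adipocyte markers in every group, with a sum over 6 (Adipoq, Fabp4, Plin1, Cebpa, Pparg and Lpl) of 41910, 39579 and 47714 FPKM under the miR-203, miR-182 and miR-708 inhibitors and 41455 FPKM in the control, most of it Fabp4. Adipoq, Cebpa and Lpl stood above the control under all 3 inhibitors. Plin1 stood below it under all 3 (646, 645 and 587 FPKM, against 650 FPKM in the control). Fabp4 stood below it with miR-203 and with miR-182 blocked, and Pparg with miR-203 blocked only. Of the 6 only Adipoq (1904 FPKM, against 1178 FPKM in the control, q = 0.00591) and Cebpa (343 FPKM, against 243 FPKM, q = 0.00327) rose, both with miR-182 blocked, in the authors' deposited tables. The 5 precursor markers (Pdgfra, Pdgfrb, Ly6a, Cd34 and Dlk1) summed to 187, 258 and 181 FPKM under the 3 inhibitors, against 106 FPKM in the control, and all 5 rose in every comparison. The 4 brown adipocyte markers (Ucp1, Cidea, Ppargc1a and Prdm16) summed to 344, 152 and 320 FPKM, against 530 FPKM. Most of each sum was Ucp1 and Cidea, which fell in every comparison. Ppargc1a (23.1, 21.1 and 22.5 FPKM, against 23.9 FPKM) and Prdm16 (6.11, 7.26 and 4.91 FPKM, against 5.40 FPKM) were called in none. The macrophage and leukocyte markers Emr1, Cd68, Csf1r and Lyz2 summed to between 4.05 and 6.34 FPKM under the inhibitors and 7.30 FPKM in the control. Of these only Lyz2 was called, and it fell with miR-182 blocked only (1.46 FPKM, against 3.32 FPKM in the control, q = 0.00176). Another such marker, Ptprc, had no row. The 4 endothelial markers each stayed below 1 FPKM in every group. Of the 5 keratinocyte and epithelial markers Krt5, Krt14, Epcam, Cdh1 and Dsp, 0 had a row in the tables used here. In such bulk cultures, fewer cells of a type and less RNA per cell cannot be told apart.

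With miR-203 blocked, no member of the list rose or fell in the authors' deposited table. Of the 7 genes that the authors tested, 0 were called by Cuffdiff, where 7.23% of all 14371 tested genes were called (4.72% higher, 2.51% lower), and 2 (Snai2 and Lasp1) had an unadjusted p below 0.05, where 17.8% of all tested genes did. Of those 7, 5 stood above the control and 2 below it, and 48.7% of all tested genes stood above it. The median log2 ratio of the 7 genes, as log2 of inhibitor plus 1 over control plus 1 FPKM, was 0.19, beside -0.01 over the 12764 genes tested and with at least 1 FPKM in either group. With miR-182 blocked 1 of 7 was called higher and none lower (14.6% of all tested genes were called, 8.4% higher and 6.23% lower), with a median of 0.15 beside -0.01. With miR-708 blocked 1 of 7 was called higher and none lower (7.56% of all tested genes were called, 4.51% higher and 3.05% lower), with a median of -0.01 beside -0.02. The called gene was Snai2 in both cases.

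**Figure D2:**
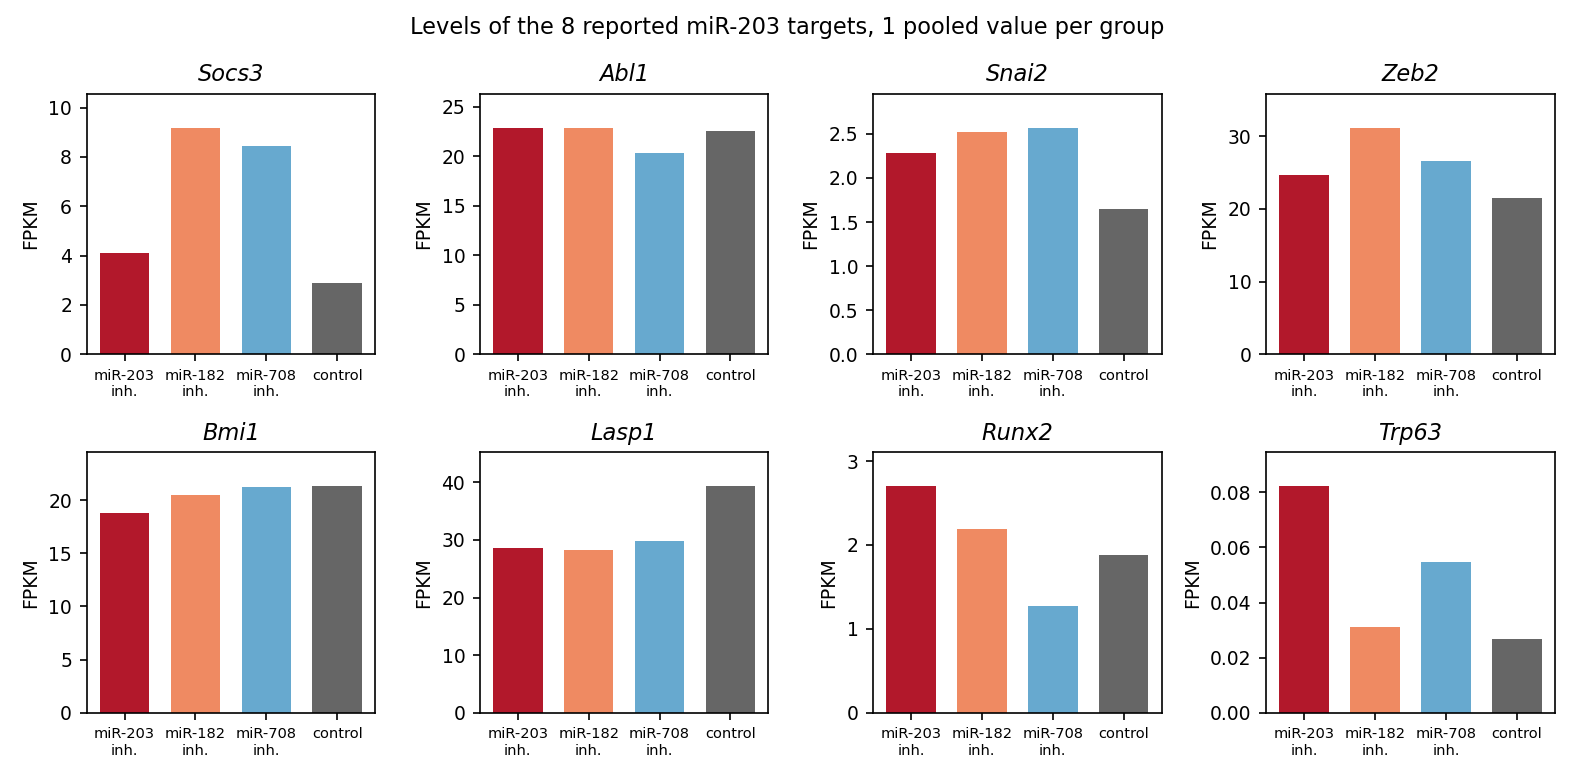
FPKM of the 8 genes (vertical axes start at 0 and differ between panels), with 1 bar per group for the miR-203, miR-182 and miR-708 inhibitors and the control. Each bar is the authors' value for a group, so no error bar can be drawn; Socs3, Snai2, Zeb2 and Trp63 stood above the control under all 3 inhibitors and Bmi1 and Lasp1 below it.

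Snai2 and Zeb2 encode transcriptional repressors of the epithelial-mesenchymal transition, which silence E-cadherin and are used by many mesenchymal cells. Snai2 (Slug; chr16:14705852-14709385, plus strand) had 2.28, 2.52 and 2.57 FPKM under the miR-203, miR-182 and miR-708 inhibitors, against 1.65 FPKM in the control. All 3 inhibitor values lay above the control value and close to each other. In the authors' deposited tables the log2 fold change was 0.47 for miR-203 (1.38-fold, q = 0.105, not called), 0.61 for miR-182 (1.53-fold, q = 0.0181) and 0.64 for miR-708 (1.56-fold, q = 0.0104). Snai2 thus rose where miR-182 or miR-708 was blocked, and its 3′ UTR holds no seed match for either. The difference between the inhibitors was not tested. Snai2 moved in the same direction as the precursor markers above, whose part in this was not tested. Over the 3 log2 ratios with 1 FPKM added to each value, a scale that shrinks the ratios of a gene as low as Snai2, the genes nearest to Snai2 among 8371 genes with at least 5 FPKM in all 4 groups were Ccar1 (24.02, 26.4 and 26.2 FPKM under the miR-203, miR-182 and miR-708 inhibitors, 19.5 FPKM in the control) and Pabpc1 (285, 303 and 307 FPKM, 232 FPKM in the control), which differed from it by at most 0.03 in any ratio on that scale, a likeness over 4 group values only. Without the added 1 FPKM the largest gap was 0.22 for Ccar1 and 0.24 for Pabpc1 (log2).

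Zeb2 (chr2:44983632-45117395, minus strand) stood at 24.6, 31.2 and 26.6 FPKM under the miR-203, miR-182 and miR-708 inhibitors, against 21.5 FPKM in the control. It was highest with miR-182 blocked (1.45-fold, q = 0.247 in the authors' deposited table) and was not called with miR-203 (1.14-fold, q = 0.895) or miR-708 blocked (1.23-fold, q = 0.788). Its locus in the tables also holds the antisense gene Gm13476, at 6.19, 8.41 and 8.34 FPKM and 5.89 FPKM in the control. The library kit keeps strand, but whether counting used it was not given in the sources used here, so reads of overlapping genes may have been divided between them. Of 6 tested factors of this transition, 1 rose with miR-203 blocked and none fell, where 4.72% and 2.51% of all tested genes did. It was Snai1, the closest relative of Snai2 (19.3 FPKM, against 14.6 FPKM in the control, 1.32-fold, q = 0.0473 in the authors' deposited table). Snai1 was not called with miR-182 blocked (18.0 FPKM, q = 0.199) or miR-708 blocked (15.4 FPKM, q = 0.935). The list median with miR-203 blocked was 0.21. Zeb1, the paralog of Zeb2, had 9.90 FPKM with miR-203 blocked, against 10.8 FPKM in the control (q = 0.892).

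Of 9 listed genes that SNAIL or ZEB factors are known to regulate, 5 epithelial ones (Cdh1, Epcam, Krt8, Krt18 and Ocln) had no row in the tables used here. Of the 4 measured, 2 were called higher with miR-203 blocked and 0 lower in the authors' deposited table, where 4.72% and 2.51% of all tested genes were, and their median log2 ratio was 0.38. They were Cldn1, the tight junction protein claudin-1 (2.15 FPKM, against 1.05 FPKM in the control; 2.05-fold, q = 0.00176), and Fn1, fibronectin (148 FPKM, against 108 FPKM; 1.37-fold, q = 0.00706). Cldn1 is known as a gene that Snai2 represses and Fn1 as a mesenchymal gene. With miR-182 blocked 3 of the 4 rose and with miR-708 blocked 2 rose, and none fell in either. Of all tested genes, 8.4% rose with miR-182 blocked and 4.51% with miR-708 blocked. Cldn1 rose in both and stood higher than with miR-203 blocked, at 4.66 FPKM (miR-182) and 2.63 FPKM (miR-708), with q = 0.00176 each. Fn1 rose with miR-182 blocked (154 FPKM, q = 0.00176) and was not called with miR-708 blocked (136 FPKM, q = 0.0848). The 5 precursor markers rose in the same groups, and their part in these values was not tested.

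Socs3 (chr11:117966079-117970047, minus strand), a feedback inhibitor of cytokine and leptin receptor signalling through Janus kinases, had 4.11, 9.19 and 8.43 FPKM under the miR-203, miR-182 and miR-708 inhibitors, against 2.90 FPKM in the control. The values with miR-182 and miR-708 blocked stood apart from the other 2 groups, and the miR-203 value was the lowest of the 3 inhibitor values. It was not called in any of the authors' deposited tables, at 1.42-fold for miR-203 (q = 0.949), 3.17-fold for miR-182 (q = 0.544) and 2.90-fold for miR-708 (q = 0.584). No member of the 8-gene SOCS family was called in any of the 3 tables. Of all tested genes, 7.23% were called with miR-203 blocked, 14.6% with miR-182 blocked and 7.56% with miR-708 blocked. With miR-203 blocked the 7 tested SOCS genes had a median log2 ratio of 0.11. Of its relatives, Cish had 7.16, 7.09 and 6.07 FPKM under the miR-203, miR-182 and miR-708 inhibitors, against 4.83 FPKM in the control (q = 0.290 for miR-203). Socs2 had 4.76, 6.69 and 5.40 FPKM, against 4.34 FPKM in the control (q = 0.940 for miR-203). Socs1 stood below 1 FPKM in every group.

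Among 13 tested receptors, Janus kinases and STAT factors upstream of Socs3, 2 were called higher with miR-203 blocked and 0 lower in the authors' deposited table. Of all tested genes, 4.72% were called higher and 2.51% lower. The median log2 ratio of the 13 was 0.05. Among the called genes was Osmr, the oncostatin M receptor (8.16 FPKM with miR-203 blocked, against 5.56 FPKM in the control; 1.47-fold, q = 0.0145). With miR-182 blocked 3 of the 13 rose and with miR-708 blocked 1 rose, where 8.4% and 4.51% of all tested genes did, and none fell. Osmr also rose with miR-182 blocked (8.72 FPKM, q = 0.00176) and was not called with miR-708 blocked (7.41 FPKM, q = 0.128). Stat3, the factor that induces Socs3, stood at 60.6 FPKM with miR-203 blocked and 43.3 FPKM in the control and was not called (q = 0.572).

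**Figure D3:**
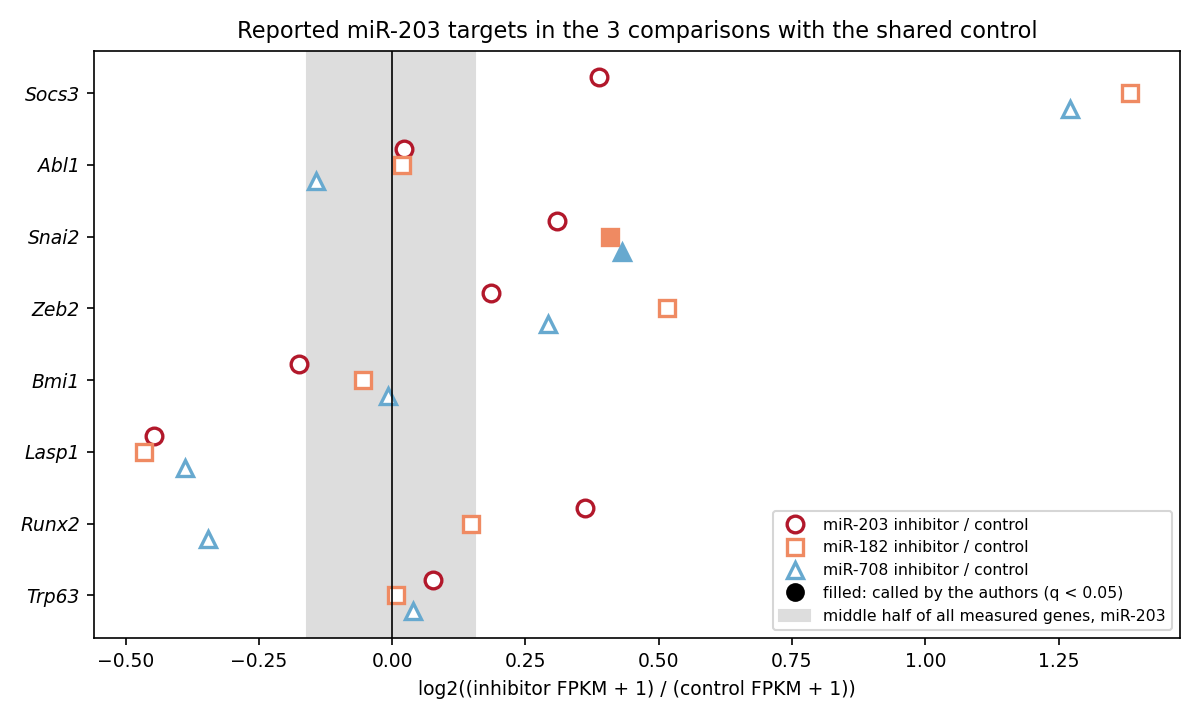
Log2 ratios (inhibitor FPKM plus 1 over control FPKM plus 1) of the 8 genes under the miR-203 (circles), miR-182 (squares) and miR-708 (triangles) inhibitors; filled symbols were called by the authors at q below 0.05 and the grey band spans the quartiles of all 12764 measured genes for miR-203 (-0.16 to 0.16). The 2 filled symbols belong to Snai2, and the values farthest to the right are those of Socs3 with miR-182 (1.38) and miR-708 (1.27) blocked.

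Bmi1 (chr2:18677018-18686629, plus strand), a core subunit of Polycomb repressive complex 1 that keeps progenitor cells dividing by silencing the Ink4 locus, had 18.8, 20.5 and 21.2 FPKM under the miR-203, miR-182 and miR-708 inhibitors, against 21.3 FPKM in the control. The 4 values lay within 1.14-fold of each other and the miR-203 value was the lowest. With miR-203 blocked the q-value was 0.957 in the authors' deposited table. Of 20 Polycomb genes, 1 rose with miR-203 blocked and none fell, where 4.72% and 2.51% of all tested genes did. The list median log2 ratio was -0.07, including Bmi1. The gene that rose was Cbx6, a chromodomain subunit (11.6 FPKM, against 6.93 FPKM in the control, 1.67-fold, q = 0.0402 in the authors' deposited table). Cbx6 was higher still with miR-182 blocked (13.4 FPKM, q = 0.00706) and with miR-708 blocked (12.1 FPKM, q = 0.0952, not called). With miR-182 blocked 1 of the 20 rose and 2 fell, where 8.4% and 6.23% of all tested genes did. With miR-708 blocked none was called. Of the cell cycle inhibitors at the Ink4 locus that Bmi1 represses, Cdkn2a had 6.85 FPKM with miR-203 blocked, against 5.60 FPKM in the control (q = 0.410). Cdkn2b fell with miR-203 blocked in the authors' deposited table (16.8 FPKM, against 23.0 FPKM in the control, q = 0.0145) and with miR-182 blocked (13.7 FPKM, q = 0.00176), and was not called with miR-708 blocked (18.6 FPKM, q = 0.186).

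Abl1 (chr2:31688376-31804227, plus strand), a non-receptor tyrosine kinase that relays signals to the cytoskeleton and the nucleus, had 22.9, 22.8 and 20.3 FPKM under the miR-203, miR-182 and miR-708 inhibitors, against 22.5 FPKM in the control. The miR-203 value was 1.02-fold the control value (q = 0.996 in the authors' deposited table). Abl1 is 1 of the 2 genes with an 8mer. Its locus in the tables also holds Exosc2, on the same strand (6.77 FPKM with miR-203 blocked and 6.21 FPKM in the control), and the antisense gene Gm13427. Its paralog Abl2 had 4.85 FPKM with miR-203 blocked, against 4.18 FPKM in the control (q = 0.868). None of 8 tested ABL kinases and adaptors was called in any of the 3 tables. The shares called of all tested genes were 7.23% for miR-203, 14.6% for miR-182 and 7.56% for miR-708.

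Lasp1 (chr11:97799000-97838764, plus strand), an actin-binding protein of focal adhesions, had 28.6, 28.2 and 29.8 FPKM under the miR-203, miR-182 and miR-708 inhibitors, against 39.4 FPKM in the control. The 3 inhibitor values lay close together and below the control value. The log2 fold change in the authors' deposited tables was -0.46 for miR-203 (q = 0.188), -0.48 for miR-182 (q = 0.180) and -0.40 for miR-708 (q = 0.368), so Lasp1 was not called in any of them. Of its adhesion partners, Zyx, which encodes zyxin, fell in all 3 of the authors' deposited tables, to 10.0, 9.33 and 9.44 FPKM under the miR-203, miR-182 and miR-708 inhibitors, against 14.5 FPKM in the control (q = 0.00176 each). With miR-203 blocked Zyx was the 1 called gene of 5 tested in this list, where 7.23% of all tested genes were called. The median log2 ratio of the list was -0.09.

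Runx2 (chr17:44495987-44814797, minus strand), the transcription factor that commits mesenchymal precursors to bone, had 2.70, 2.20 and 1.27 FPKM under the miR-203, miR-182 and miR-708 inhibitors, against 1.88 FPKM in the control. It stood above the control with miR-203 blocked (1.44-fold, q = 0.790 in the authors' deposited table) and below it with miR-708 blocked (log2 fold change -0.57, q = 0.698), and was called in neither. Its locus in the tables also holds the opposite-strand gene Supt3, which had 16.5, 14.8 and 19.2 FPKM under the miR-203, miR-182 and miR-708 inhibitors, against 21.7 FPKM in the control, and which fell with miR-182 blocked (q = 0.00819 in the authors' deposited table). Reads of these overlapping genes may have been divided between them. Its paralog Runx1 had 1.03 FPKM with miR-203 blocked, against 0.821 FPKM in the control (q = 0.200), and Runx3 reached at most 0.0310 FPKM in any group. Of 3 tested osteoblast genes none was called with miR-203 blocked, where 7.23% of all tested genes were. Alpl, alkaline phosphatase, had 6.60 FPKM, against 1.92 FPKM in the control (3.45-fold, q = 0.251 in the authors' deposited table), and Sp7, which defines osteoblasts, reached at most 0.0786 FPKM in any group.

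Trp63 (chr16:25683763-25892102, plus strand), the p53 relative that maintains the progenitors of stratified epithelia, was close to absent. It had 0.0823, 0.0312 and 0.0548 FPKM under the miR-203, miR-182 and miR-708 inhibitors, against 0.0266 FPKM in the control, and was given p and q of 1 in each table, which is taken as not tested. In the control, 3.33% of all genes in the tables had a lower value. No direction is read from these values. Its relative Trp53 had 28.2 FPKM with miR-203 blocked and 31.6 FPKM in the control and was not called (q = 0.731 in the authors' deposited table).

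The levels of the other 7 genes in the control ran, per length, in the order Lasp1, Abl1, Zeb2, Bmi1, Socs3, Runx2 and Snai2. Abl1, Zeb2 and Bmi1 stood near each other at 21.3 to 22.5 FPKM and Runx2 and Snai2 at 1.65 to 1.88 FPKM, and with 1 value per group no spread tells these neighbours apart.

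The number of seed matches was also set beside the values of all genes. With miR-203 blocked, 391 measured genes with 2 or more CATTTCA in the longest 3′ UTR had a median log2 ratio of 0.00, 1470 genes with 1 match had -0.02 and 9157 genes with none had -0.01. Among the 1861 genes with at least 1 match, 4.78% were called higher and 2.74% lower, beside 5.39% and 2.80% of the genes with none. The same classes had medians of -0.01, -0.02 and -0.01 with miR-182 blocked and -0.03, -0.02 and -0.01 with miR-708 blocked. Genes with a match have longer 3′ UTRs, with a median of 2635 bases against 966 bases for genes with none in the miR-203 comparison. The quartile ranges of these classes overlapped almost fully, from -0.15 to 0.14 for genes with at least 1 match and from -0.15 to 0.15 for genes with none.

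**Figure D4:**
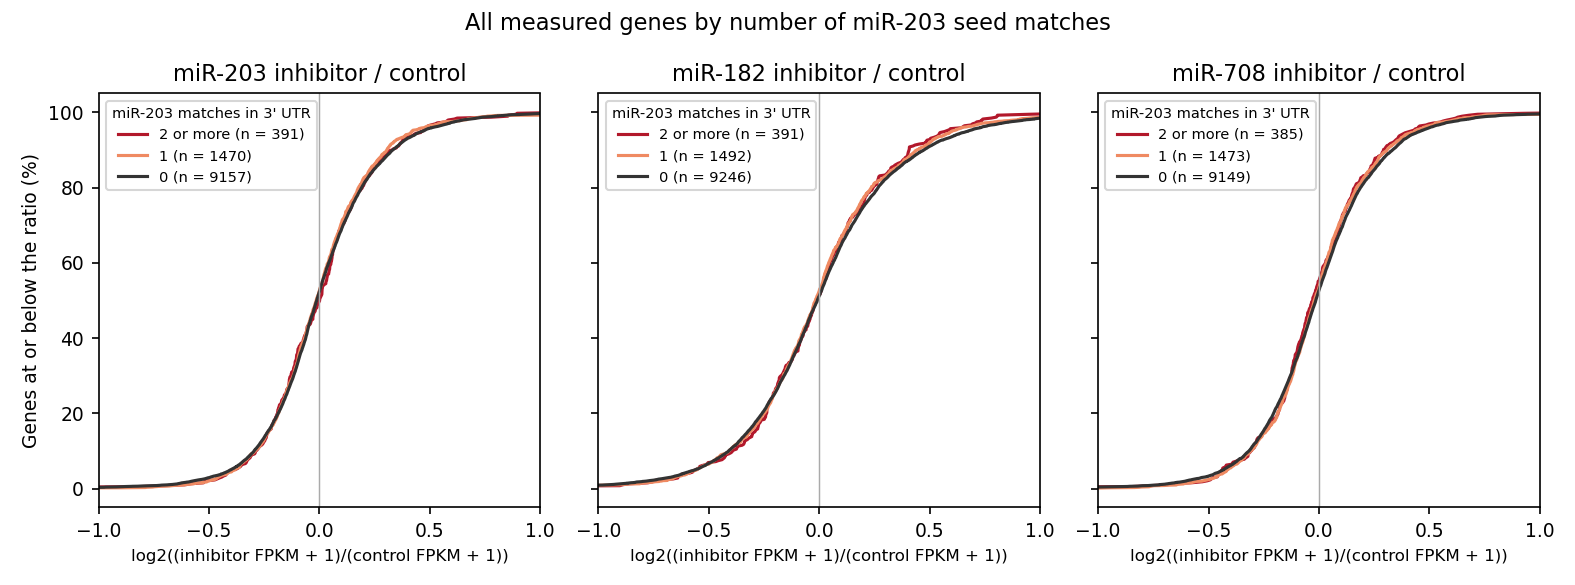
Cumulative distribution of the log2 ratio (FPKM plus 1) over all measured genes with an annotated 3′ UTR, split by the number of miR-203-3p seed matches, for the miR-203, miR-182 and miR-708 inhibitors against the control. With miR-203 blocked the 3 curves (391, 1470 and 9157 genes) lie on each other, with medians of 0.00, -0.02 and -0.01.

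A further 13 genes reported elsewhere as miR-203 targets were listed for comparison, of which 11 had a row and 9 were tested. Of the 9 tested, 1 rose and 1 fell with miR-203 blocked in the authors' deposited table, where 4.72% and 2.51% of all tested genes did. Of these 9, 6 stood above the control, and their median log2 ratio was 0.01. Of the 11 with a row, 8 held CATTTCA in the longest 3′ UTR and 3 did not. The gene that rose was Birc5, which encodes the mitotic protein survivin (13.7 FPKM, against 7.83 FPKM in the control; 1.75-fold, q = 0.00176). Its longest 3′ UTR, of 2936 bases, holds no CATTTCA. The gene that fell was Raph1, a regulator of actin at the leading edge (26.1 FPKM, against 41.9 FPKM in the control; log2 ratio -0.66, q = 0.00591), with 1 match in 6008 bases. Both were called in the same direction with miR-182 and with miR-708 blocked. Zfp281, whose 3′ UTR has 3 matches, had 3.30 FPKM in both the miR-203 and the control group. Skp2 and Akt2 have 2 matches each. Skp2 had 1.58 FPKM with miR-203 blocked, against 1.23 FPKM in the control (q = 0.260). It rose with miR-182 blocked (q = 0.00706) and with miR-708 blocked (q = 0.00591). Akt2 had 141 FPKM with miR-203 blocked, against 140 FPKM in the control (q = 0.997).

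**Figure D5:**
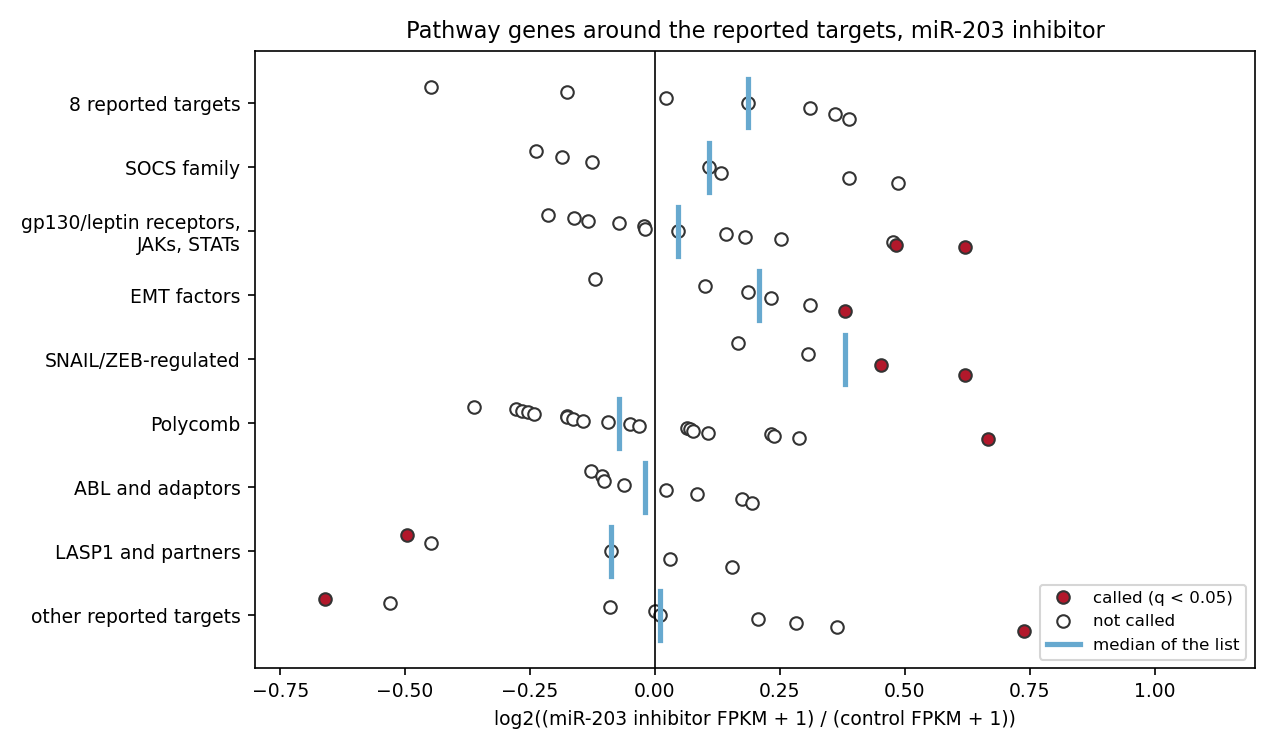
Log2 ratios (miR-203 inhibitor FPKM plus 1 over control FPKM plus 1) of the reported targets and of the gene lists around them with at least 4 measured genes, 1 point per gene with at least 1 FPKM in either group (filled where called by the authors at q below 0.05) and a bar at the list median. No point of the 8 reported targets is filled, and their median of 0.19 lies between those of the Polycomb list (-0.07) and the SNAIL and ZEB regulated list (0.38).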

How the data were processed

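Messenger RNA of 8 samples was sequenced from 5 µg of total RNA each with a directional kit, per the labels. The tools named in the submitters' processing notes are TopHat2 2.0.9 and Cuffdiff 2.1.1, with the build mm10; their options, the annotation and the library scaling were not given in the sources used here. There are 3 deposited tables of 18933 genes each. The authors deposited a group-level FPKM, 1 for the 2 samples of a group, which was taken as pooled. The p-value, the q-value and the log2 fold change are likewise the authors' deposited values. Genes with p and q of 1 were taken as not tested. Depth is unknown, so no interval or test across samples could be computed, and calls are the authors', at q below 0.05.

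Log2 ratios were computed with a pseudocount of 1 (python 3.11.15, pandas 2.3.3), which understates changes of low genes. Medians were taken over tested genes with at least 1 FPKM in either group. The 3′ UTR of each protein-coding transcript of GENCODE M21 was taken from the base after the stop codon, for 14603 of 18933 genes matched by identifier, and the longest per gene was searched on the sense strand. The scripts were tested on simulated data. Members, lists and named genes were chosen with earlier results of these data known: all 8 members, the largest 2 called genes of each list, paralogs, markers and the 2 nearest genes to a called member. A gene that this rule names is not reported here. Other genes were named after their values were seen.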

Additional observations from a re-analysis of the deposited data

How the results depend on the processing

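At q below 0.01 Snai2 was no longer called, which left 0 members called with miR-182 and 0 with miR-708 blocked. With miR-203 blocked 0 members were called under each alternative tried. Adjusting the deposited p-values over the tested genes of each table alone (Benjamini-Hochberg), or asking for at least 1 FPKM in both groups, left the counts at 0, 1 and 1 for miR-203, miR-182 and miR-708. The median log2 ratio of the members ran from 0.13 to 0.20 for miR-203 over pseudocounts of 0.1 and 5, no filter and centring on all genes, from 0.06 to 0.21 for miR-182, and from -0.01 to 0.02 for miR-708. Of 72 member values under an alternative, 55 lay within 0.1 of the value reported and 71 kept its sign; the exception was Bmi1 with miR-708 blocked, at 0.01 after centring. The 17 that moved by more were those of Socs3, Snai2, Runx2 and Trp63, the genes with the lowest FPKM, under another pseudocount. The median log2 ratio of genes with a miR-203 match minus that of genes without was 0.00105 with miR-203 blocked and ran from -0.00534 to 0.00406 with 8mers, any annotated 3′ UTR, at least 5 FPKM in the control, or 3′ UTRs of 1000 to 2500 bases, the last chosen after seeing the data. No replicate could be left out and no paired analysis was possible because the tables hold 1 value per group. Unknown depth and pooled values are the main limits.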

Other observations

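Socs3 was singled out after its values were seen. With miR-182 blocked, 11 other tested genes had a control value within 1.5-fold of its 2.90 FPKM and a ratio at least as high as its 3.17, and 10 of these were called in the authors' deposited table. With miR-708 blocked, 6 other genes met the same criteria with its ratio of 2.90, and 5 were called. None of these 11 and 6 genes had a p-value as high as that of Socs3 (0.122 for miR-182 and 0.143 for miR-708). The values of the single samples, which would show how far the 2 samples of a group differed, were not analysed here.

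A shorter annotated transcript of Trp63 ends in another 3′ UTR, of 1635 bases, with its own match to bases 2 to 8 of miR-203-3p at chr16:25866790-25866796. The 22 bases, with the match in capitals, show that the transcript ends of the gene hold separate sites.
Trp63, shorter transcript: gatttgtaatggggCATTTCAt
At 0.0823 FPKM or less in every group, no value of Trp63 bears on either site.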
